A study of Homo sapiens with 6 samples.

Results

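The Notch receptors, their ligands and their HES-type target genes were followed in A431CT and Dsg2KO cells. The members are 10 of the 21462 genes in the count table, taken by symbol. They are the receptors NOTCH1, NOTCH2 and NOTCH3, the ligands JAG1, JAG2 and DLL1, and the target genes HES1, HES4, HEY1 and NRARP. A431 is a human keratinocyte line from an epidermoid carcinoma. A431CT cells are its controls with DSG2 intact, and in Dsg2KO cells the desmosomal cadherin DSG2 was knocked out by CRISPR/Cas9 editing. The wording of the study does not settle whether the control line also went through editing. Both were grown in the same serum-containing medium and no treatment is named in the labels, and polyadenylated RNA was sequenced from 3 samples of each, which the study treats as biological replicates. The sources used here do not say whether either line is 1 clone. Since the edited line is the source of every Dsg2KO library, loss of Dsg2 and other differences between the lines cannot be told apart.

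Notch signaling works between touching cells. A ligand of the Jagged or Delta-like family on one cell pulls on a Notch receptor on its neighbour, ADAM proteases and then γ-secretase cut the receptor, and the freed intracellular part enters the nucleus. There it joins the DNA-binding protein RBPJ and Mastermind proteins and turns on genes such as the HES and HEY repressors and NRARP, which in turn limits the pathway. In the epidermis, Notch signaling is known for driving basal keratinocytes toward differentiation, with JAG1, JAG2 and DLL1 among the ligands used by keratinocytes.

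The libraries held 12845719 to 16255692 counts. DSG2 itself was at 330.0, 320.3 and 318.8 counts per 1000000 (CPM, scaled with edgeR's TMM factors) in A431CT and at 50.9, 55.2 and 49.7 CPM in Dsg2KO libraries, so 16.1% of its level was left. Of 6 keratinocyte markers, KRT5, KRT17, TP63, CDH3 and DSG3 were counted in every library, while the basal keratin KRT14 was at or under 3 counts in every library. The summed keratinocyte markers lay between 1116 and 1159 CPM in A431CT and between 1102 and 1121 CPM in Dsg2KO cells. Fibroblast markers summed to at most 0.470 CPM, with PDGFRA and COL1A2 at 0, and melanocyte markers to between 3.02 and 4.50 CPM, with MLANA at 0. Leukocyte markers summed to 2.36 to 3.02 CPM in A431CT and 3.15 to 4.82 CPM in Dsg2KO cells, with CD3E at 0. Endothelial markers, which matter because endothelium also uses Notch, summed to 8.53 to 11.5 CPM in A431CT and 15.1 to 15.7 CPM in Dsg2KO cells. Of these, PECAM1 and CDH5 were higher in Dsg2KO cells (log2 fold changes of 0.54 and 0.76). VWF was at 0.22 (edgeR adjusted p = 0.66), and KDR and TEK stayed at or under 3 counts. The part of these marker differences in the results below was not tested. In bulk RNA, a change in the number of cells of a type and a change in RNA per cell cannot be told apart.

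The start regions of the target genes were read for the letters that the proteins of the pathway are known to bind. RBPJ binds the core GTGGGAA, and HES proteins bind N-boxes, CACNAG, by which HES1 is known to repress its own gene. Both were searched on both strands of the 250 bases before the RefSeq start sites (GRCh38.p14), where the table held 8 of the 10 genes and lacked DLL1 and HEY1. The RBPJ core was found before HES1 and HES4, and in 5.43% of all 35116 start regions. N-boxes were found before HES1 and NOTCH3, and in 32.0% of all start regions. The core began 85 bases before the RefSeq start in HES1 and 77 bases before it in HES4. For HES4 the sources differ. GENCODE, used for the gene positions below, starts this minus-strand gene at 1000172, inside the window printed here. By that start the core spans the start site, and part of the printed letters lies within the gene. For HES1 and NRARP the windows end next to the GENCODE starts. HES1 also held 3 N-boxes, beginning 165, 132 and 58 bases before the start, of which the farthest lies on the opposite strand and reads CTTGTG here. The windows of NOTCH1, NOTCH2, JAG1, JAG2 and NRARP held neither run of letters. The windows of HES1, HES4 and NRARP are shown because these targets differed in direction between the lines, with the matches in capitals (7 letters for the RBPJ core, 6 for an N-box). They are chr3:194135898-194136147 on the plus strand, chr1:1000158-1000347 on the minus strand, which ends 61 bases before the start, and chr9:137302272-137302521 on the minus strand.
HES1: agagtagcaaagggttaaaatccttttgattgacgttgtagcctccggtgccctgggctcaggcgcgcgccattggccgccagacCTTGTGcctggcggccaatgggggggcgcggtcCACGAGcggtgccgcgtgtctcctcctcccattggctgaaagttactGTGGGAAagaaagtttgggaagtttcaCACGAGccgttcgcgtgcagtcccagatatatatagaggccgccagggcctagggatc
HES4: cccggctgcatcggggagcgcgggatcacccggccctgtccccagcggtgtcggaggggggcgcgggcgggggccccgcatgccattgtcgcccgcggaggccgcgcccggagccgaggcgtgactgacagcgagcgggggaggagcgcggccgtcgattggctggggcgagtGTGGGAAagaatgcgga
NRARP: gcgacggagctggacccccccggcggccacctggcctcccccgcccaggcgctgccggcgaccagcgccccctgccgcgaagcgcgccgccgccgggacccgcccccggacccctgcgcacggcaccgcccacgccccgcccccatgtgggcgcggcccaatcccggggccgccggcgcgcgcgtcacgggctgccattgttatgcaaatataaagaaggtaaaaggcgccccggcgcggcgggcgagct

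All 10 genes passed the filter on low counts (edgeR's filterByExpr) and were tested among 12857 genes. A gene was counted as changed where edgeR's quasi-likelihood test gave an adjusted p-value under 0.05 and the log2 fold change was 0.5 or more in either direction, the thresholds of the study. The target NRARP rose, and the ligand JAG2 and the target HES4 fell. These 3 of 10 genes compare with 6.03% of all genes tested, where 2.99% were called higher and 3.03% lower. By the adjusted p-value alone, 7 of 10 genes passed, against 29.6% of all genes, the further ones being NOTCH2 and HES1 as higher and JAG1 and DLL1 as lower genes. For 8 of 10 genes no Dsg2KO library fell within the A431CT range or the reverse, against 42.6% of all genes. The median log2 fold change of the 10 genes was -0.22 and their median absolute change 0.32, while over all genes these values were -0.0048 and 0.14. The 3 ligands were all lower by the adjusted p-value. Of the receptors only NOTCH2 passed it, as a higher gene, and of the targets HES1 and NRARP were higher and HES4 lower.

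**Figure D1:**
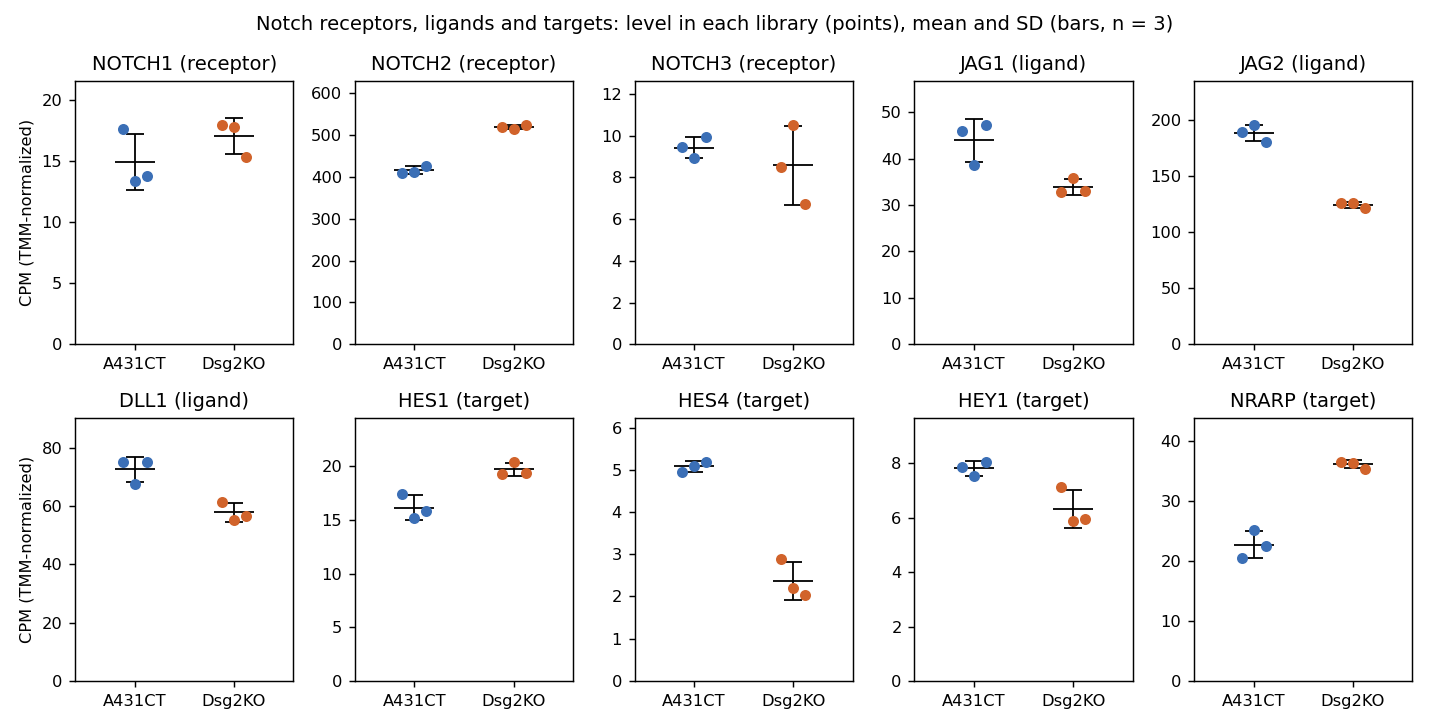
Level of each Notch gene in CPM (vertical axes from 0, 1 panel per gene) in the 3 A431CT (blue) and 3 Dsg2KO (orange) libraries, with the mean and SD. The libraries of the conditions overlap for NOTCH1 and NOTCH3 only, and NRARP lies between 20.5 and 25.1 CPM in A431CT and between 35.3 and 36.5 CPM in Dsg2KO cells.

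NOTCH2 was by far the best counted receptor. This receptor is encoded on chromosome 1 from 119911553 to 120100779 (GRCh38, minus strand, GENCODE 44). It was at 409, 412 and 426 CPM in A431CT libraries and at 520, 514 and 524 CPM in Dsg2KO libraries. Every Dsg2KO library lay above every A431CT library, and the difference between the means was much larger than the SDs of 9.10 and 5.20 CPM (n = 3 each). The log2 fold change was 0.32 (standard error, SE, 0.03, edgeR adjusted p = 6.01e-06), a 1.25-fold difference that is below the fold change minimum. The 50 nearest tested genes on the chromosome, 25 on each side, were shifted by a median of 0.16 on this scale, and 38 of them were higher, so that NOTCH2 stood 0.16 above its neighbours on the log2 scale. NOTCH2 has near-identical partial copies, the NOTCH2NL genes, whose reads the counting could have split. Together NOTCH2NLA, NOTCH2NLB and NOTCH2NLC held between 0.564% and 1.38% of the NOTCH2 count in any library.

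NOTCH1, the receptor best known for keratinocyte differentiation, lies on chromosome 9 from 136494433 to 136546048. It was at 17.6, 13.4 and 13.8 CPM in A431CT and at 18.0, 17.8 and 15.3 CPM in Dsg2KO libraries. A431CT replicate 1 reached the Dsg2KO range, and the groups overlapped. Its log2 fold change was 0.19 (SE 0.12, edgeR adjusted p = 0.25), with a 95% interval from -0.06 to 0.44. Without A431CT replicate 1 it was 0.32 (edgeR adjusted p = 0.058), in a range of adjusted p-values from 0.058 to 0.55 over the alternatives. NOTCH3, on chromosome 19 from 15159038 to 15200995, was at 9.44, 8.92 and 9.92 CPM in A431CT libraries and at 8.52, 10.5 and 6.74 CPM in Dsg2KO libraries. The Dsg2KO libraries spread on both sides of the A431CT libraries. The log2 fold change of NOTCH3 was -0.13 (SE 0.16, edgeR adjusted p = 0.59), and its interval from -0.47 to 0.21 covers changes of either sign. Without Dsg2KO replicate 3 its sign turned, at 0.017. NOTCH4, which is chiefly an endothelial receptor, had 2 to 10 counts per library and was not tested.

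JAG2 was the ligand that fell by both thresholds. It is encoded on chromosome 14 from 105140982 to 105168824 and codes for a Jagged-type transmembrane ligand. It was at 189, 196 and 181 CPM in A431CT libraries and at 126, 126 and 121 CPM in Dsg2KO libraries. The groups lay far apart, with 188.5 ± 7.43 CPM (SD, n = 3) against 124.3 ± 2.69 CPM (SD, n = 3). Its log2 fold change was -0.60 (SE 0.04, edgeR adjusted p = 1.34e-07), which left 65.9% of the A431CT level. The 32 tested genes around it had a median log2 fold change of 0.02. Leaving out any 1 library kept it between -0.63 and -0.57.

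JAG1, the other Jagged-type ligand, on chromosome 20 from 10637684 to 10673999, was at 46.0, 38.7 and 47.3 CPM in A431CT and at 32.8, 35.8 and 33.1 CPM in Dsg2KO libraries. A431CT replicate 2 came closest to the Dsg2KO libraries, without reaching them. The log2 fold change was -0.37 (SE 0.08, edgeR adjusted p = 0.0021), and the neighbouring genes had a median of -0.01. DLL1, a Delta-like ligand on chromosome 6 from 170282206 to 170306565, was at 75.1, 67.7 and 75.4 CPM in A431CT and at 61.6, 55.4 and 56.8 CPM in Dsg2KO libraries. All Dsg2KO libraries of DLL1 were below all A431CT libraries, and the log2 fold change was -0.33 (SE 0.06, edgeR adjusted p = 7.73e-04). The 29 tested genes around DLL1, near the end of the chromosome, were themselves lower, with a median of -0.22 and 24 of them below 0. Relative to them DLL1 was at -0.11. DLL1 also shares 370 exonic bases with FAM120B on the opposite strand, whose log2 fold change was -0.44 (edgeR adjusted p = 7.16e-05). Since the strand setting of the counting is unknown, reads of this stretch cannot be told apart. Unnamed long non-coding RNAs share 306 exonic bases with JAG1 and 73 with NRARP on the opposite strand and 469 with JAG2 on the same strand, and they are not in the count table. DLL3 had at most 1 count in any library, as did DLL4, the ligand best known from endothelium.

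NRARP was the gene of the 10 that rose by both thresholds. It encodes a small ankyrin repeat protein that is switched on by Notch and holds the Notch complex down, and it lies on chromosome 9 from 137299631 to 137302271. It was at 20.5, 25.1 and 22.5 CPM in A431CT libraries and at 36.5, 36.3 and 35.3 CPM in Dsg2KO libraries. The lowest Dsg2KO library was more than 10 CPM above the highest A431CT library, and the Dsg2KO libraries lay close together. The means were 22.7 ± 2.28 and 36.0 ± 0.651 CPM (SD, n = 3 each), a 1.59-fold rise. Its log2 fold change was 0.67 (SE 0.08, edgeR adjusted p = 1.72e-05), with a range of 0.60 to 0.74 when each library was left out in turn. The 34 tested genes around it had a median of 0.03. The genes whose log2 CPM over the 6 libraries, each centred on its own mean, lay closest to that of NRARP were RCAN1 and IFIH1, with root mean square differences of 0.05 each on the log2 scale. With 3 close libraries per line, such a profile mostly follows the log2 fold change, which was 0.70 for RCAN1 and 0.62 for IFIH1. Shared regulation was not tested.

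HES1, the classical Notch target and a repressor of the basic helix-loop-helix family, was higher by the adjusted p-value alone. It lies on chromosome 3 from 194136148 to 194138732. It was at 17.5, 15.2 and 15.8 CPM in A431CT and at 19.3, 20.4 and 19.4 CPM in Dsg2KO libraries. All Dsg2KO libraries were above all A431CT libraries, and A431CT replicate 1 was within 2 CPM of the lowest of them. The log2 fold change was 0.29 (SE 0.09, edgeR adjusted p = 0.026), with a 95% interval from 0.09 to 0.48. This adjusted p-value was not stable. It was 0.091 without A431CT replicate 2, 0.066 without A431CT replicate 3, 0.082 without Dsg2KO replicate 2, 0.053 without Dsg2KO replicate 3 and 0.12 with DESeq2, while the log2 fold change stayed between 0.24 and 0.35 without any 1 library. Its neighbours had a median log2 fold change of 0.08.

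HES4, another repressor of this family whose RefSeq start region holds the RBPJ core shown above, fell. It lies on chromosome 1 from 998962 to 1000172 and was thinly counted, with 63, 69 and 67 counts in A431CT and 43, 36 and 33 counts in Dsg2KO libraries. These are 4.95, 5.09 and 5.19 CPM in A431CT and 2.89, 2.20 and 2.04 CPM in Dsg2KO libraries. The groups did not overlap, and 46.7% of the A431CT level was left, with a 95% interval of the ratio from 0.34 to 0.65. The log2 fold change was -1.10 (SE 0.22, edgeR adjusted p = 0.0017). HES4 sits near the end of the short arm of chromosome 1, where 24 of the 28 tested genes around it were lower, with a median of -0.39. Relative to them HES4 was at -0.70. STARD4 had a profile close to that of HES4 over the 6 libraries (root mean square difference of 0.09), and EFHD2 and SNRPF were nearest to JAG2 (0.02 and 0.03). These profiles too mostly follow the fold change. HEY1, a repressor of the related HEY family on chromosome 8 from 79762371 to 79767857, was at 7.86, 7.52 and 8.06 CPM in A431CT and at 7.11, 5.87 and 5.93 CPM in Dsg2KO libraries. Its groups did not overlap, but the log2 fold change of -0.31 (SE 0.15) did not pass (edgeR adjusted p = 0.15), and its 95% interval ran from -0.64 to 0.02.

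**Figure D2:**
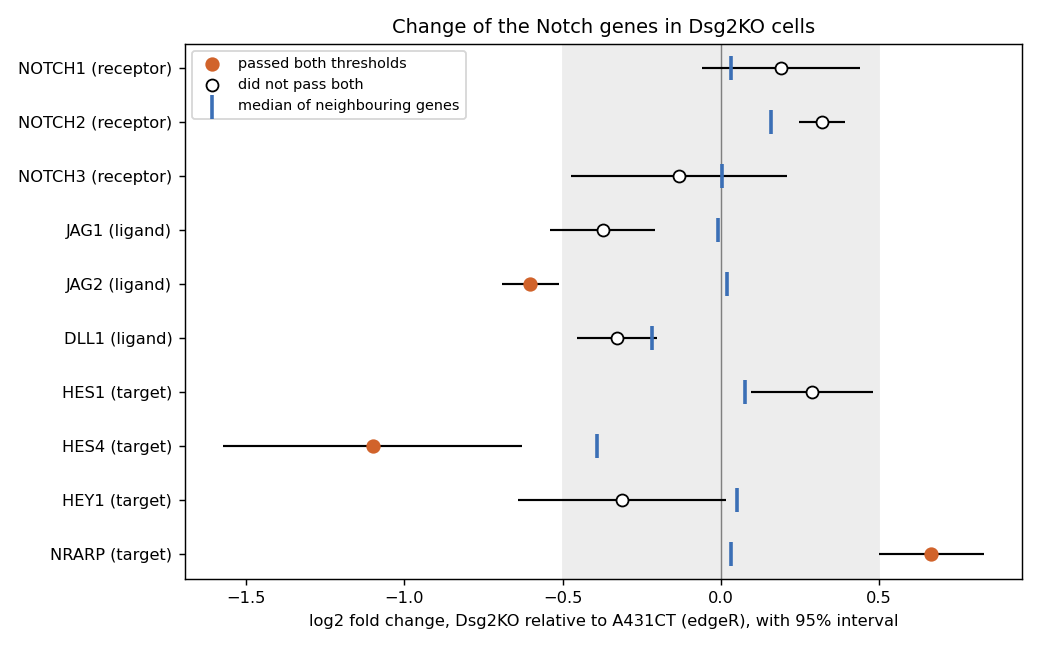
Log2 fold change of each Notch gene in Dsg2KO relative to A431CT cells (points, edgeR) with 95% intervals (lines), and the median log2 fold change of the neighbouring genes on the chromosome (blue ticks). The grey band marks changes below the fold change minimum of 0.5, and the filled points outside it are JAG2 at -0.60, HES4 at -1.10 and NRARP at 0.67. The neighbours of HES4 and DLL1 were lower and those of NOTCH2 higher.

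To compare levels between genes, CPM were divided by the length of the canonical transcript in kilobases. In A431CT cells NOTCH2 led with 36.4 ± 0.797 CPM per kb (SD, n = 3), followed by JAG2 with 32.7 ± 1.29 and DLL1 with 19.2 ± 1.15. HES1, NRARP, JAG1, HES4 and HEY1 followed, from 10.3 down to 3.56 CPM per kb, and NOTCH1 and NOTCH3 came last with 1.56 and 1.09. Of these neighbours in the order, only the libraries of NRARP and JAG1 overlapped. In Dsg2KO cells NOTCH2 was at 45.4 ± 0.455 CPM per kb and JAG2 at 21.5 ± 0.465, so the gap between the leading receptor and the leading ligand was wider. NRARP, at 13.6 CPM per kb, stood above HES1 at 12.5, the reverse of their order in A431CT cells. HEY1 and HES4 changed places too, at 2.87 and 2.68 CPM per kb, with overlapping libraries. Dividing by the union of all annotated exons instead put JAG2 (29.5) above NOTCH2 (24.8) and NRARP (8.59) above HES1 (7.85) in A431CT cells, and HES4 above HEY1 in Dsg2KO cells, so these orders rest on the length used.

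As a class, the 3 receptors summed to 39.1 ± 0.747 CPM per kb in A431CT and 48.2 ± 0.166 in Dsg2KO cells (SD, n = 3 each). NOTCH2 made up 93.2% ± 0.673 of this sum in A431CT and 94.3% ± 0.747 in Dsg2KO cells, and these shares overlapped. The 3 ligands summed to 59.3 ± 1.04 CPM per kb in A431CT and to the lower value of 42.6 ± 0.996 in Dsg2KO cells. The share of JAG2 among the ligands lay between 52.9% and 58.1% in A431CT and between 49.9% and 51.3% in Dsg2KO libraries. That of DLL1 lay between 30.7% and 33.7% and between 34.5% and 37.4%, and neither share overlapped between the lines. The share of JAG1 was 12.5% ± 1.17 against 13.4% ± 0.758 and overlapped. No test was made of these sums.

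**Figure D3:**
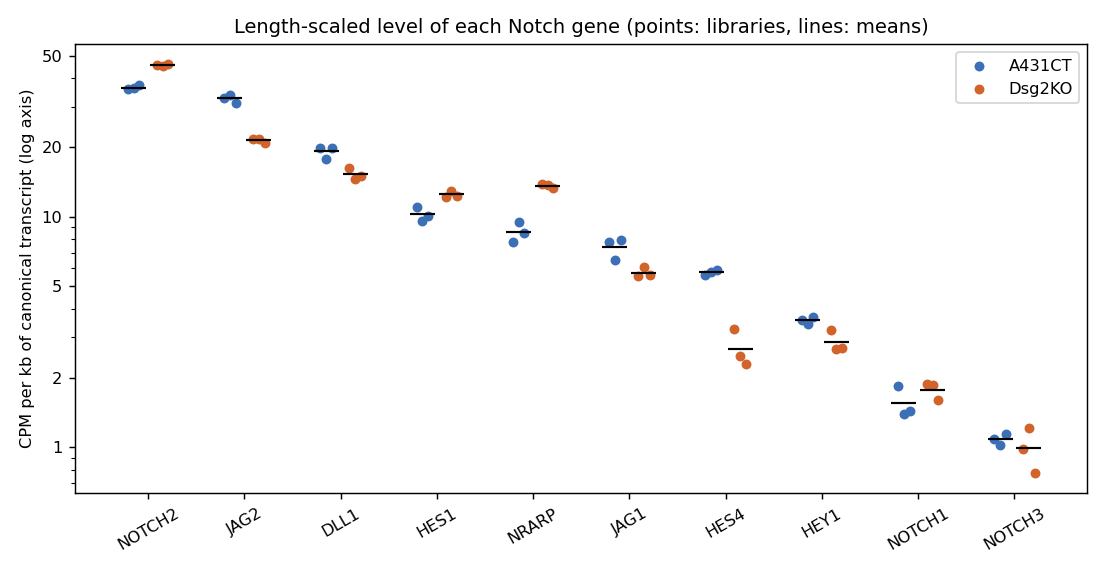
Level of each Notch gene in CPM per kb of canonical transcript (log axis) in each library, with lines at the means, ordered by the mean in A431CT cells. NOTCH2 and JAG2 were close in A431CT cells, at 36.4 and 32.7, and apart in Dsg2KO cells, at 45.4 and 21.5.

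The rest of the pathway was read from 71 further genes, of which 56 were tested. Their median log2 fold change was -0.01, and 2 of them, the corepressor NCOR1 and the repressor HES2, passed both thresholds, both as lower genes, where 6.03% of all genes passed. By the adjusted p-value alone 8 were higher and 11 lower, where 29.6% of all genes passed, so neither count is far from its background. NCOR1 and HES2 are named because they passed both thresholds, and the other genes named from here on were singled out after their values were seen.

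NCOR1 is a corepressor that joins RBPJ at target genes when Notch is silent, besides serving nuclear receptors. It was at 73.8, 73.9 and 73.2 CPM in A431CT libraries and at 40.9, 42.5 and 43.3 CPM in Dsg2KO libraries. The libraries within each condition were tight and the conditions far apart. Its log2 fold change was -0.80 (SE 0.05, edgeR adjusted p = 6.32e-08), and the genes around it had a median of -0.02. NCOR1 shares exonic bases with TTC19 (340) and PIGL (321) on the opposite strand, which were not called and had mean levels of 41.3 and 41.3 CPM and of 7.14 and 5.52 CPM in A431CT and Dsg2KO cells. Among the other 10 tested corepressors, HDAC1 (-0.49) and SPEN (-0.15) were among those lower by the adjusted p-value alone, and their chromosome neighbours had medians of -0.30 and -0.29. TLE1, a Groucho-type corepressor that HES proteins recruit, was higher, with a log2 fold change of 0.43 (edgeR adjusted p = 0.0023).

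HES2, a HES family repressor on chromosome 1 from 6412418 to 6424670, had 65, 71 and 94 counts in A431CT and 38, 42 and 36 counts in Dsg2KO libraries. Its groups did not overlap, and its log2 fold change was -1.26 (SE 0.22, edgeR adjusted p = 5.60e-04). Of the 50 genes around it 47 were lower, with a median of -0.33. HEYL, on the same chromosome from 39623435 to 39639643, had 6, 21 and 9 counts in A431CT and 0, 1 and 0 counts in Dsg2KO libraries and did not pass the filter. With 3 counts per library as the floor, the A431CT mean was 4.73-fold the mean floor of the Dsg2KO libraries. This ratio was 3.05 without A431CT replicate 2, the library with 21 counts. The lowest A431CT library was at 0.472 CPM, against a mean floor of 0.191 CPM, so these ratios of a mean are not lower bounds. Its neighbours had a median of -0.28. HES4, HES2 and HEYL thus all lie on chromosome 1 among genes that were mostly lower, with a median of -0.39 around HES4. Relative to its neighbours HES2 was at -0.93. Whether a shift shared with the neighbours acts on these 3 genes was not tested. HEYL was called without the filter, without A431CT replicate 1 and with DESeq2 (adjusted p = 2.28e-04, 0.0014 and 0.0017). HES6 was at 0.03 on the log2 scale (edgeR adjusted p = 0.91), and HES3, HES5, HES7 and HEY2 had at most 5 counts in any library.

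Of the 9 genes for cleavage of the receptors, 2 were higher and 2 lower by the adjusted p-value, which 29.6% of all genes passed. NCSTN and PSENEN, both subunits of γ-secretase, were at 0.30 (edgeR adjusted p = 0.0015) and -0.31 (edgeR adjusted p = 0.0019). FURIN, which makes the first cut in the secretory pathway, was at 0.18, and the sheddase ADAM17 at -0.20 with an adjusted p-value of 0.0495, while ADAM10 was at 0.11 and did not pass. Of the 5 glycosylation genes, POGLUT1, which adds O-linked glucose to the receptors, was higher (0.30) and POFUT1, which adds O-linked fucose, was lower (-0.21, beside neighbours at -0.13). The fringe genes LFNG, MFNG and RFNG did not pass.

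RBPJ, the DNA-binding partner, was at 0.12 (edgeR adjusted p = 0.067). Of the 8 tested nuclear activators, MAML2 (0.24) and CREBBP (0.14) were higher by the adjusted p-value, and none was lower. Over all genes tested, 29.6% passed this threshold in either direction, so this count is near its background. The acetyltransferase KAT2B had a log2 fold change of 0.50 and missed the adjusted p-value threshold (0.059, edgeR). The cofactor SNW1 was listed at 0 in every library, and whether this is its level or a gap in the counting was not tested. Among 12 tested genes of endocytosis and turnover, the ubiquitin ligase DTX3L was higher (0.36) by the adjusted p-value. NEURL1B (-0.17) and MIB2 (-0.42, beside neighbours at -0.37) were lower. This count too is near the 29.6% of all genes. MIB1, which drives ligand endocytosis, was at 0.00. The non-canonical ligand DLK2 was at 0.04 and did not pass (edgeR adjusted p = 0.80), and DLK1 and DNER were too low to test.

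Of 8 tested genes linked to Notch in keratinocytes, CCND1 (0.40), which encodes cyclin D1, was higher and KRT10 (-0.40), a keratin of the differentiating layers, lower by the adjusted p-value. This count is near the 29.6% of all genes that passed. Of the other differentiation markers, IVL was at 0.36 and did not pass (edgeR adjusted p = 0.11), and KRT1 was at 0 counts. The cell cycle inhibitor CDKN1A was at -0.47 and did not pass (edgeR adjusted p = 0.11), nor did MYC, TP63 or GATA3, whose log2 fold changes lay between -0.02 and 0.07.

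**Figure D4:**
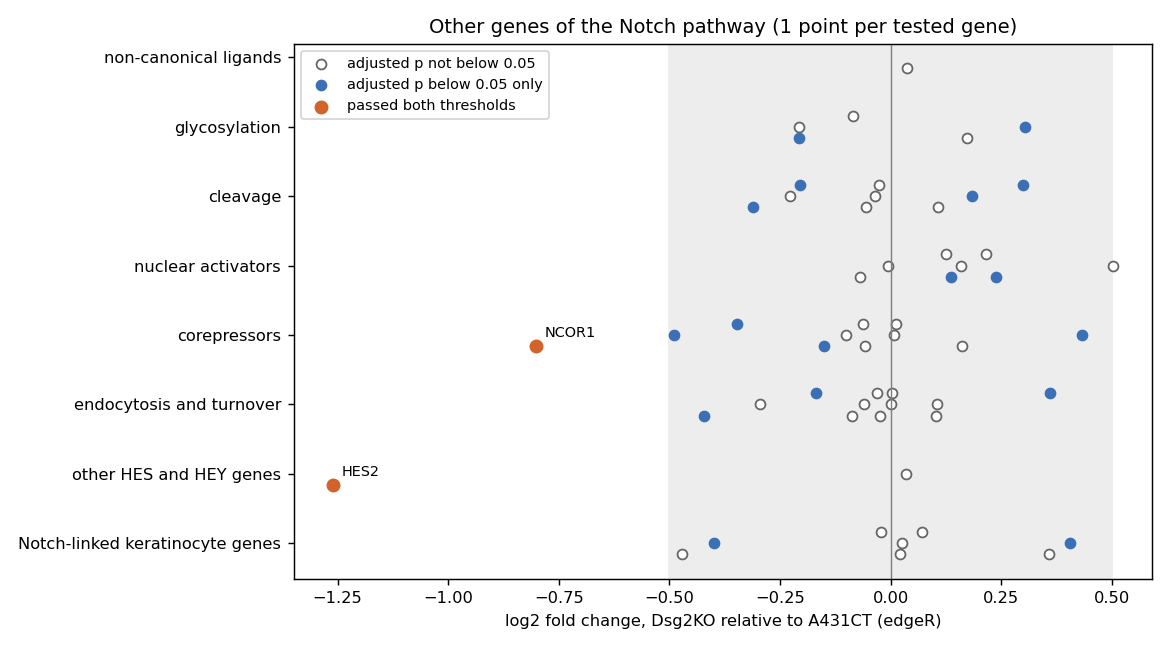
Log2 fold change in Dsg2KO relative to A431CT cells of the 56 further Notch pathway genes tested, 1 point per gene, grouped by role. The grey band marks changes below 0.5. NCOR1 at -0.80 and HES2 at -1.26 are the points that passed both thresholds, the blue points passed the adjusted p-value alone, and the open point at 0.50 is KAT2B.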

How the data were processed

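Polyadenylated RNA of A431CT and Dsg2KO cells (3 libraries each) was sequenced by the authors with paired-end reads, trimmed, aligned to GRCh38 and counted per gene in CLC Genomics Workbench version 23. The deposited values are whole-number read counts per gene symbol without normalization. The gene annotation, the strand setting and the treatment of reads with several matches are not given in the sources used here. Library totals were 12845719 to 16255692 counts, at which 3 counts correspond to 0.185 to 0.234 CPM (counting error only).

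Counts were analysed in R 4.3.3 with edgeR 4.0.16 (TMM, filterByExpr with a minimum count of 10 and a minimum total of 15, quasi-likelihood F test without covariates, Benjamini-Hochberg over all 12857 genes tested), and the procedure was tested on simulated data. Intervals are 95% intervals from the same model fitted without a prior count, with the SE derived from the F statistic of the test. They are therefore not centred exactly on the printed fold changes. Log2 CPM used a prior count of 2. The biological coefficient of variation was 4.79%, and replicates varied beyond counting error (chi-square per degree of freedom of 2.66 to 4.20). The labels do not say whether equally numbered libraries were paired. Their residuals correlated by -0.0027 to 0.054, and the numbers were not used as pairs in the main test.

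Positions, exons and canonical transcripts came from GENCODE 44, which placed 19478 of the 21462 symbols by name and chromosome. Neighbours were the 25 nearest tested genes on each side, fewer at chromosome ends. Start regions came from RefSeq (GRCh38.p14). Alternatives were RLE factors, total counts, no filter, at least 10 counts in every library, DESeq2 1.42.0, each library left out, a replicate block, other fold change minimums and removal of the neighbours' median. Other rows for DSG2, HES2 and NCOR1 and the exon-union length were added after seeing the data. The named genes were the members, DSG2, other Notch genes past both thresholds, overlapping or copied genes and the 2 nearest profiles of each called member, of which some are not reported here. The members, lists and tests were chosen with earlier results of these data known. Python 3.11.15 was used for tables and figures.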

Additional observations from a re-analysis of the deposited data

How the results depend on the processing

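NRARP, JAG2 and HES4 were the 3 called members in all 12 refits, namely RLE factors, total counts, no low-count filter, at least 10 counts in every library, DESeq2, the replicate block and each library left out. The fold change minimum moved the counts by its own construction. Without it 7 members, 19 of the further Notch genes and 3802 genes in all passed, and with a minimum of 1 these were 1, 1 and 250 instead of 3, 2 and 775. With 1 library left out, 3 members, 2 to 3 further Notch genes and 686 to 795 genes in all were called. The further Notch gene that came in was HEYL without A431CT replicate 1, IVL without Dsg2KO replicate 1 and HDAC1 without Dsg2KO replicate 2, and KAT2B with total counts or the stricter filter. The labels do not say whether equal replicate numbers pair the libraries, and the replicate block gave 3 members, 2 further Notch genes and 769 genes. The log2 fold change of NOTCH3 turned to 0.017 without Dsg2KO replicate 3 and was -0.31 without Dsg2KO replicate 2, the ends of its range. HES1 passed the adjusted p-value alone as reported and lost it in 5 refits. Less the median of their neighbours, NOTCH2 was at 0.16, DLL1 at -0.11 and HES4 at -0.70, and whether the neighbours' shift acts on these genes was not tested. Depth limits the members HES4 and HEY1, with at most 106 counts in any library, and further Notch genes with fewer counts.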
